A study of Mus musculus with 9 samples.

Results

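The genes described here are 8 transcription factors of the hepatobiliary lineage: Sox9, Sox4, Onecut1, Onecut2, Prox1, Gata6, Cebpa and Cebpb. They were taken by gene name from the deposited count files, which list 32137 genes, and each name was found once. RNA was sequenced from sorted cells of differentiated bile duct organoids, which are cultures grown from duct epithelium and then moved to a medium that favours hepatocyte features. All cultures came from 1 male mouse of mixed genetic background with the genotype Axin2CreERT2+/-; R26-LSL-tdTom+/-. In such cells a Cre recombinase that tamoxifen activates is made where the Wnt target gene Axin2 is expressed, and it switches on the red reporter tdTomato permanently.

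There were 3 groups of 3 libraries. Untreated cells were tdTomato-negative cells of organoids that received no R-spondin 1 (Rspo1), a secreted factor that strengthens Wnt signalling. Rspo1-negative and Rspo1-positive cells were the tdTomato-negative and tdTomato-positive cells of organoids given 100 ng/ml Rspo1. Every culture, the untreated ones included, was differentiated for 11 days and received 3 uM dexamethasone and 500 nM 4-hydroxytamoxifen in the last 24 hours. Each group had 1 library at each of organoid passages 5, 6 and 10. Since the line comes from 1 animal, p-values measure the spread between repeated cultures. Reporter-positive cells of untreated organoids were not analysed here, so a difference between Rspo1-positive and untreated cells can come from the treatment or from the sorting gate, and these cannot be told apart. In bulk RNA, fewer cells expressing a gene and less RNA per cell cannot be told apart either.

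Hepatocytes and bile duct cells descend from a common embryonic progenitor, the hepatoblast. Sox9, Sox4 and the Onecut factors act in the cells that form ducts, Prox1 acts in hepatoblasts and hepatocytes, and the C/EBP proteins Cebpa and Cebpb drive genes of mature hepatocytes. Wnt signalling, which acts through beta-catenin and the DNA-binding TCF/LEF proteins, is known for its part in duct cell expansion and in the zonation of hepatocytes.

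Total counts per library ranged from 23423979 to 37351448, and all 8 genes were among the 17011 genes that passed the filter on low counts. The noncoding gene CT010467.1 took 8.89% of the counts of the passage 6 Rspo1-positive library, 7.20% of those of the passage 6 Rspo1-negative library and 4.35% of those of the passage 10 Rspo1-positive library. The duct label was checked on 5 markers (Krt7, Krt19, Epcam, Spp1 and Cftr), whose summed level was 5441 to 8510 CPM (counts divided by library totals that TMM had rescaled) over all libraries. Outside these 5, the duct gene Sctr had at most 2 counts in any library. The summed level of 6 hepatocyte markers was 164 to 545 CPM, most of it from Ttr, and Cps1, Cyp3a11 and Tat stayed under 10 counts in every library. Outside these 6, Trf, which is on the longer list of hepatocyte genes used below, had 845 to 4801 CPM. The markers summed here are thus only a part of the lists. The 3 endothelial markers found summed to at most 0.215 CPM and the 3 mesenchymal ones to at most 0.892 CPM. Among immune markers Ptprc and Cd3e stayed under 10 counts, and the list, which held Cd68 as well, summed to 5.37 to 23.2 CPM. The 4 proliferation markers Mki67, Top2a, Ccnb1 and Cdk1 moved with the groups: their sum was 30.3 to 79.4 CPM in untreated, 72.6 to 123 CPM in Rspo1-negative and 333 to 569 CPM in Rspo1-positive libraries. The part of this difference in the results that follow was not tested.

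RefSeq promoter windows were at hand for 5 of the 8 genes (Sox4, Onecut1, Prox1, Cebpa and Cebpb). Of these, Sox4, Onecut1 and Prox1 were lower in Rspo1-negative than in untreated cells, and the first 200 bases of their windows, which end upstream of the annotated start, are shown because these genes moved together. Capitals mark CCAAT boxes (CCAAT, read on both strands) and GC boxes (GGGCGG, both strands), which are common elements of promoters. The Sox4 window is chr13:28953750-28953949, minus strand, the Onecut1 window is chr9:74861671-74861870, plus strand, and the Prox1 window is chr1:190170878-190171077, minus strand, all in GRCm38.p6 coordinates.
Sox4: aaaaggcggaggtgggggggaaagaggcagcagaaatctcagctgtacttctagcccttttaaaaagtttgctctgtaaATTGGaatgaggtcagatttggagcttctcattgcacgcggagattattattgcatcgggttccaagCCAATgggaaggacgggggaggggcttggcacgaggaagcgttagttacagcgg
Onecut1: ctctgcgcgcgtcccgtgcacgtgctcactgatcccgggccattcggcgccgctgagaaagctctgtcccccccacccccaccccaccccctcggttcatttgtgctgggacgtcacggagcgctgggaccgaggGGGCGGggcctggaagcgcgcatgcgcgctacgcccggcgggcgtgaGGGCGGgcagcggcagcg
Prox1: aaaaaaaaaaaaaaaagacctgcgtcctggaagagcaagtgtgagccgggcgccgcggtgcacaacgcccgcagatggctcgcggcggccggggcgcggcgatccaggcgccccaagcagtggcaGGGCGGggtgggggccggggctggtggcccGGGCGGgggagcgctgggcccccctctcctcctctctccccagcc
The Sox4 window held 50.5% G and C and 2 CCAAT boxes. The Onecut1 and Prox1 windows held 74% and 72% G and C and 2 GC boxes each. RefSeq has a second window for Prox1 (chr1:190169566-190169765, minus strand, GRCm38), not shown, with 53% G and C and 1 GC box. Of 32851 windows of this length in the RefSeq table, 28.4% held a CCAAT box and 24.6% a GC box. No searched motif was common to all 3 windows. None of them, nor those of Cebpa and Cebpb, held the TCF/LEF motif (CTTTGAA or CTTTGAT, both strands), which 6.3% of all windows held. None held the C/EBP motif TTGCNNAA (both strands), which 8.11% of all windows held. These are counts of letters in short windows and say nothing of where a factor binds.

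Across the 3 groups the 8 genes did not move as a block. Sox9 was higher in both Rspo1 groups than in untreated cells. Onecut2, Onecut1, Prox1 and Sox4 were lower in Rspo1-negative cells than in untreated cells, and Onecut2, Prox1 and Sox4 were higher in Rspo1-positive cells than in Rspo1-negative ones. For Gata6, Cebpa and Cebpb no comparison between groups passed the threshold, an adjusted p under 0.05 in edgeR's quasi-likelihood F-test (Benjamini-Hochberg over all 17011 genes). With passage as a block, Cebpa passed it in 2 comparisons and Cebpb in 1, and with an offset for GC content and length Gata6 passed it in 1; these values are given with each gene.

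**Figure D1:**
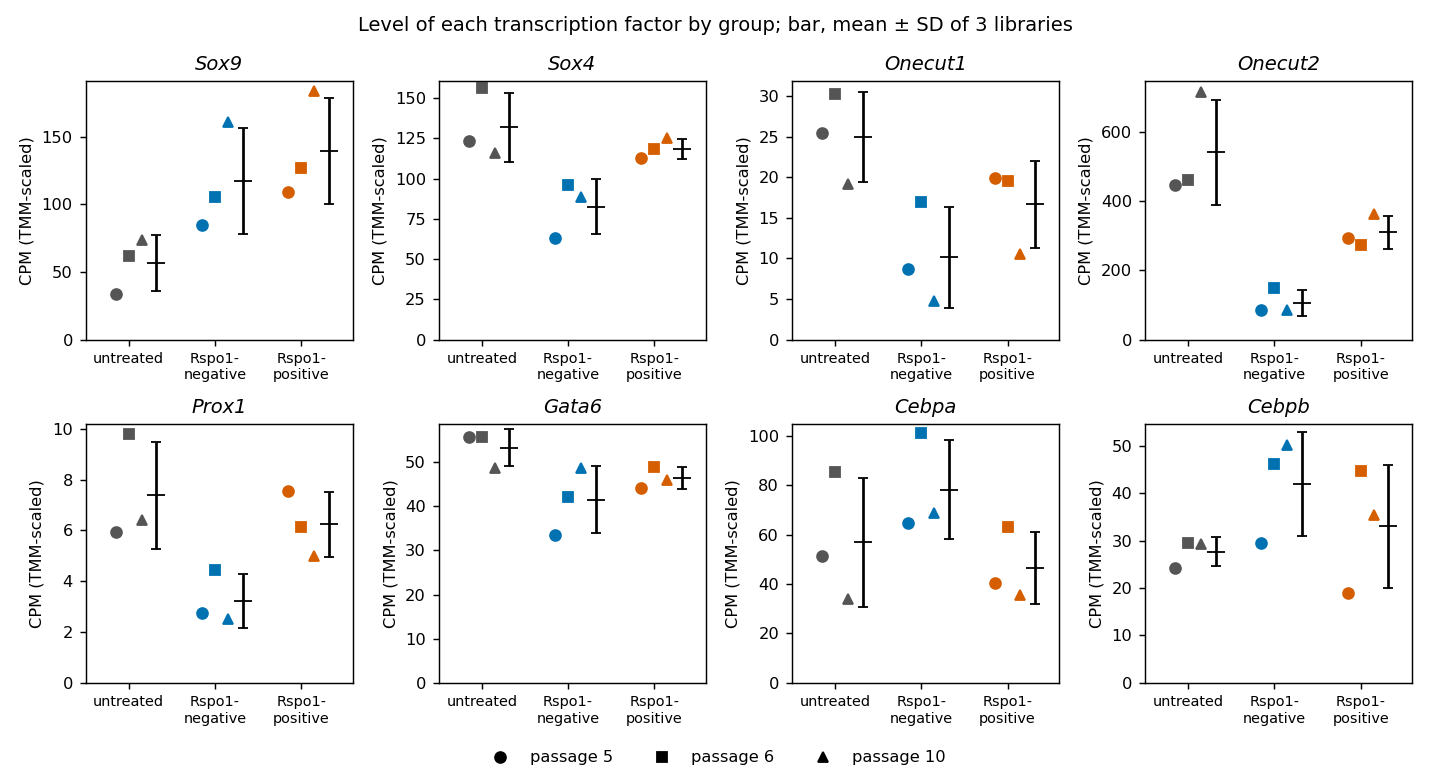
CPM (TMM-scaled) of each of the 8 genes in the 9 libraries, by group; each point is 1 library, its shape gives the passage, and the bar is the mean ± SD of 3 libraries. Sox9 is higher in all 6 Rspo1 libraries than in the untreated ones, and Onecut2 is lowest in the 3 Rspo1-negative libraries, at 84.7 to 150 CPM.

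In Rspo1-positive against untreated cells, 1 of the 8 genes was called, Sox9, which was higher. Over all genes tested 5.21% were called, 3.07% higher and 2.13% lower. The median log2 fold change was -0.22 over the 8 genes and -0.01 over all genes. The libraries of these groups did not overlap for 2 of the 8 genes (Sox9 and Onecut2), and for 23.2% of all genes.

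In Rspo1-negative against untreated cells, 5 of the 8 genes were called: Sox9 was higher, and Sox4, Onecut1, Onecut2 and Prox1 were lower. The share over all genes was 21.9%, 13.9% lower. The median log2 fold change was -0.52 over the 8 genes and -0.02 over all genes. The same 5 genes had groups that did not overlap, as had 36.3% of all genes. TMM scaling gave 3724 calls over all genes, 36.5% of them higher, and upper-quartile scaling gave 4070, 49.5% of them higher, so the balance of directions over all genes depends on the scaling, while no gene of the 8 changed direction with it.

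In Rspo1-positive relative to Rspo1-negative cells, 3 of the 8 genes were called, all higher: Sox4, Onecut2 and Prox1. The share over all genes was 24.3%, 14.6% higher and 9.78% lower. The median log2 fold change was 0.39 over the 8 genes and 0.03 over all genes. Groups did not overlap for 4 of the 8 genes (Sox4, Onecut2, Prox1 and Cebpa), and for 45.2% of all genes. The 3 comparisons share libraries, so the values of a gene in them are not independent.

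**Figure D2:**
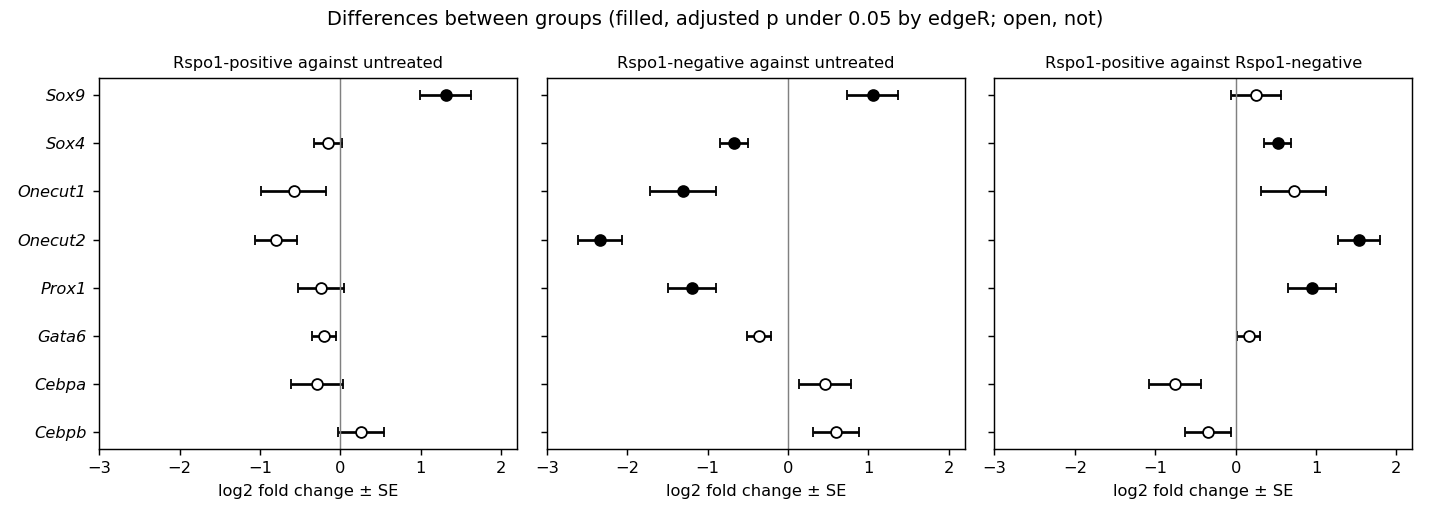
Log2 fold change ± SE of the 8 genes in the 3 comparisons between groups; filled points have an adjusted p under 0.05 by edgeR and open points do not. Sox9 is the filled point in Rspo1-positive against untreated (1.31), and Onecut2 is farthest from 0 in Rspo1-negative against untreated (-2.34).

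Sox9 (ENSMUSG00000000567, chr11:112782224-112787760, plus strand, GRCm38, 3 exons) encodes an HMG-box factor that marks duct cells and their progenitors. Its level was 33.5, 61.7 and 74.0 CPM in the untreated libraries at passages 5, 6 and 10. It was 84.7, 106 and 161 CPM in the Rspo1-negative and 109, 127 and 184 CPM in the Rspo1-positive libraries. Every Rspo1 library was above every untreated one, while the 2 Rspo1 groups overlapped. Group means were 56.4 ± 20.8, 117 ± 39.3 and 140 ± 39.1 CPM (SD, n = 3 each) in that order. By edgeR, Sox9 rose in Rspo1-positive against untreated cells by 1.31 on the log2 scale (SE 0.32, adjusted p = 0.0412), or 2.48-fold. It rose in Rspo1-negative against untreated cells by 1.05 (SE 0.32, adjusted p = 0.0381), or 2.08-fold. The Rspo1-positive and Rspo1-negative groups differed by 0.26 (SE 0.31, adjusted p = 0.589), less than the spread between libraries, which spans 3 passages. Within a passage Rspo1-positive cells were higher than Rspo1-negative ones, by 0.36, 0.26 and 0.19 log2 CPM at passages 5, 6 and 10. With passage as a block this difference was 0.27 (SE 0.14, adjusted p = 0.135 by edgeR) and was not called.

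Compared within a passage, Sox9 in Rspo1-positive cells exceeded its untreated level by 1.70, 1.04 and 1.31 log2 CPM at passages 5, 6 and 10. The same differences for Rspo1-negative cells were 1.34, 0.78 and 1.12 log2 CPM. In the main fit, which has no passage block, both calls were close to the threshold. The first was lost without any 1 of the untreated libraries of passages 5 and 6 or of the Rspo1-positive libraries of passages 6 and 10 (log2 fold change 1.04 to 1.38, adjusted p 0.0879 to 0.140 by edgeR). The second was lost without the untreated library of passage 5 or 6 or the Rspo1-negative library of passage 10 (0.79 to 1.13, adjusted p 0.0588 to 0.121 by edgeR). With all libraries and passage as a block the 2 differences were 1.34 (SE 0.14, adjusted p = 7.78e-05 by edgeR) and 1.07 (SE 0.14, adjusted p = 0.000345).

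Sox4 (ENSMUSG00000076431, chr13:28948919-28953713, minus strand, a single exon) encodes a related HMG-box factor that acts with Sox9 in duct formation. It had 123, 156 and 116 CPM in untreated, 63.2, 96.1 and 88.5 CPM in Rspo1-negative and 112, 118 and 125 CPM in Rspo1-positive libraries at passages 5, 6 and 10. The Rspo1-negative libraries were below all others, and the other groups overlapped. Sox4 fell in Rspo1-negative against untreated cells by 0.67 on the log2 scale (SE 0.17, adjusted p = 0.0207 by edgeR), or 1.60-fold. It was 1.44-fold higher in Rspo1-positive cells than in Rspo1-negative ones, a log2 difference of 0.52 (SE 0.17, adjusted p = 0.0497 by edgeR). Rspo1-positive and untreated cells differed by -0.15 (SE 0.17, adjusted p = 0.750 by edgeR).

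The direction of Sox4 differed from that of Sox9 in Rspo1-negative cells, although both genes belong to the same family. The second Sox4 call, just under the threshold, was lost without any 1 of 5 of the 6 libraries compared, all but the Rspo1-negative library of passage 6 (0.36 to 0.56, adjusted p 0.0966 to 0.156 by edgeR), and with 2 other scalings (adjusted p 0.0526 and 0.0638). The fall against untreated cells was lost without the Rspo1-negative library of passage 5 or 10 or the untreated library of passage 6 (-0.69 to -0.51, adjusted p 0.0540 to 0.0632 by edgeR). With all libraries and passage as a block, Sox4 differed between the Rspo1 groups by 0.54 (SE 0.14, adjusted p = 0.0112 by edgeR). Its fall against untreated cells was then -0.68 (SE 0.14, adjusted p = 0.00392 by edgeR). Of the exon bases of Sox4, 54.6% lie opposite the noncoding gene Gm26735, which had 896 to 2431 counts per library. Whether reads were counted by strand is not given in the sources used here, so the counts of these genes may be mixed and the Sox4 values are uncertain.

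Onecut1 (ENSMUSG00000043013, chr9:74861921-74891781, plus strand, 2 exons) encodes a cut-homeodomain factor needed for bile duct development. Its level was 25.5, 30.3 and 19.2 CPM in untreated, 8.65, 17.0 and 4.74 CPM in Rspo1-negative and 20.0, 19.5 and 10.5 CPM in Rspo1-positive libraries at passages 5, 6 and 10. Every Rspo1-negative library was below every untreated one, and the Rspo1-positive group overlapped both others. By edgeR, Onecut1 fell in Rspo1-negative against untreated cells by 1.30 on the log2 scale (SE 0.41, adjusted p = 0.0436), or 2.47-fold. It differed by -0.58 between Rspo1-positive and untreated cells (SE 0.40, adjusted p = 0.528) and by 0.72 between Rspo1-positive and Rspo1-negative cells (SE 0.41, adjusted p = 0.221).

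Within each passage the order of the groups for Onecut1 was the same, with untreated highest and Rspo1-negative lowest. With passage as a block the difference between the Rspo1 groups was 0.82 and was called (adjusted p = 0.0128 by edgeR). It was also called without the Rspo1-negative library of passage 6 (1.28, adjusted p = 0.0383 by edgeR). The fall in Rspo1-negative cells was lost without the untreated library of passage 5 or 6 or the Rspo1-negative library of passage 5 or 10 (-1.29 to -0.94, adjusted p 0.0932 to 0.136 by edgeR). Onecut1 shares 52.8% of its exon bases with the noncoding gene Gm20649 on the same strand (127 to 810 counts per library), and its values are uncertain in that respect.

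Onecut2 (ENSMUSG00000045991, chr18:64340020-64400987, plus strand, 2 exons) encodes the close relative of Onecut1 with which it acts in the embryonic liver. It had the largest difference between groups of the 8 genes. Its level was 447, 463 and 716 CPM in untreated, 84.7, 150 and 86.0 CPM in Rspo1-negative and 294, 273 and 364 CPM in Rspo1-positive libraries at passages 5, 6 and 10. No groups overlapped: untreated libraries were highest, Rspo1-positive ones intermediate and Rspo1-negative ones lowest. The group means were 542 ± 151, 107 ± 37.5 and 310 ± 47.4 CPM (SD, n = 3 each) for untreated, Rspo1-negative and Rspo1-positive cells.

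Onecut2 fell in Rspo1-negative against untreated cells by 2.34 on the log2 scale (SE 0.27, adjusted p = 0.000993 by edgeR), or 5.07-fold. It was 2.9-fold higher in Rspo1-positive cells than in Rspo1-negative ones, by 1.54 on the log2 scale (SE 0.26, adjusted p = 0.00401 by edgeR). Rspo1-positive and untreated cells differed by -0.80 (SE 0.26, adjusted p = 0.120 by edgeR), which did not pass the threshold. That difference passed with passage as a block (-0.79, adjusted p = 0.0446 by edgeR), with DESeq2 (-0.81, adjusted p = 0.0309) and with an offset for GC content and length (-0.85, adjusted p = 0.0184 by edgeR). The 2 calls of Onecut2 held without any 1 of the libraries compared.

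Prox1 (ENSMUSG00000010175, chr1:190118035-190170714, minus strand, 5 exons in the longest transcript) encodes a homeodomain factor of hepatoblasts and hepatocytes, also known from lymphatic endothelium. It was the weakest of the 8 genes, with 59 to 307 counts per library. Its level was 5.94, 9.80 and 6.39 CPM in untreated, 2.74, 4.44 and 2.5 CPM in Rspo1-negative and 7.56, 6.14 and 5.01 CPM in Rspo1-positive libraries at passages 5, 6 and 10. The Rspo1-negative libraries were below all others, and the other groups overlapped.

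By edgeR, Prox1 fell in Rspo1-negative against untreated cells by 1.19 on the log2 scale (SE 0.30, adjusted p = 0.0183), or 2.29-fold. It was 1.94-fold higher in Rspo1-positive cells than in Rspo1-negative ones, by 0.95 on the log2 scale (SE 0.30, adjusted p = 0.0399). Rspo1-positive and untreated cells differed by -0.24 (SE 0.29, adjusted p = 0.766). The first call was lost without the Rspo1-negative library of passage 5 or 10 (-1.08 and -1.01, adjusted p 0.0701 and 0.0802 by edgeR). The second was lost without any 1 of 5 of the 6 libraries compared, all but the Rspo1-negative library of passage 6 (0.76 to 1.09, adjusted p 0.0514 to 0.155 by edgeR).

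Gata6 (ENSMUSG00000005836, chr18:11052064-11085635, plus strand) encodes a zinc-finger factor of endoderm. It varied least among the 8 genes over the 9 libraries, by 0.73 log2 CPM from lowest to highest. Its level was 55.7, 55.7 and 48.6 CPM in untreated, 33.6, 42.0 and 48.8 CPM in Rspo1-negative and 44.1, 49.0 and 46.0 CPM in Rspo1-positive libraries at passages 5, 6 and 10. The Rspo1-negative libraries of passages 5 and 6 were the lowest, and the library of passage 10 lay among the other groups. The log2 differences were -0.36 (SE 0.15, adjusted p = 0.101 by edgeR) for Rspo1-negative against untreated and -0.20 (SE 0.15, adjusted p = 0.557) for Rspo1-positive against untreated cells. Between Rspo1-positive and Rspo1-negative cells the difference was 0.16 (SE 0.15, adjusted p = 0.454 by edgeR).

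Cebpa (ENSMUSG00000034957, chr7:35119293-35121928, plus strand, a single exon) encodes a leucine-zipper factor that drives hepatocyte genes. Its level was 51.3, 85.3 and 33.9 CPM in untreated, 64.6, 101 and 68.9 CPM in Rspo1-negative and 40.5, 63.1 and 35.6 CPM in Rspo1-positive libraries at passages 5, 6 and 10. In every group the passage 6 library was the highest. The Rspo1-positive libraries were all below the Rspo1-negative ones, and the untreated group overlapped both. The difference between the Rspo1 groups was -0.75 (SE 0.33, adjusted p = 0.118 by edgeR). It was -0.78 and passed the threshold with passage as a block (adjusted p = 0.00252 by edgeR). With an offset for GC content and length it was -0.44 (adjusted p = 0.443 by edgeR), and -0.45 with block and offset together (adjusted p = 0.0520). Rspo1-negative and untreated cells differed by 0.46 (SE 0.33, adjusted p = 0.341 by edgeR), and by 0.53 with the block (adjusted p = 0.0174 by edgeR). Rspo1-positive and untreated cells differed by -0.29 (SE 0.33, adjusted p = 0.742 by edgeR), a value that was 0.12 without the untreated library of passage 6.

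Cebpb (ENSMUSG00000056501, chr2:167688915-167690418, plus strand, a single exon) encodes another C/EBP factor, which is induced in liver by inflammation and injury. Its level was 24.2, 29.5 and 29.4 CPM in untreated, 29.5, 46.1 and 50.2 CPM in Rspo1-negative and 19.0, 44.7 and 35.5 CPM in Rspo1-positive libraries at passages 5, 6 and 10. The lowest Rspo1-negative library lay at the top of the untreated range in CPM, and just above it in deposited FPKM, and the Rspo1-positive libraries spanned that range. Rspo1-negative and untreated cells differed by 0.60 (SE 0.29, adjusted p = 0.164 by edgeR), and by 0.56 with passage as a block (adjusted p = 0.0219 by edgeR). The other differences of Cebpb were 0.25 (SE 0.29, adjusted p = 0.747) for Rspo1-positive against untreated and -0.34 (SE 0.29, adjusted p = 0.414) for Rspo1-positive against Rspo1-negative cells, by edgeR. Of its exon bases 20.7% lie opposite Tmem189, which had 698 to 1263 counts per library, so the Cebpb values are uncertain too.

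The fold changes of the 2 comparisons that involve Rspo1-negative cells followed GC content and length across genes. The rank correlation of log2 fold change with the GC content of the longest transcript was 0.50 over 17001 genes in Rspo1-negative against untreated cells and -0.50 in Rspo1-positive relative to Rspo1-negative cells. With transcript length it was -0.31 and 0.31. In Rspo1-positive against untreated cells both were near 0 (-0.01 and 0.01). These are descriptions across genes, which are not independent and share the same libraries.

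The 8 genes span most of this range. Onecut2 has a transcript of 16234 bases, 14356 of them after the coding part, with 42.6% G and C, and 99.8% of the tested genes are shorter. Prox1 has 7913 bases and 45.3% G and C. Cebpb has 1504 bases and 67.2% G and C, more than 99.6% of the tested genes, and Cebpa has 2626 bases and 62.6%. The median tested gene has 2898 bases and 49.9%. The first 120 coding bases of Prox1 (chr1:190162127-190162246, minus strand, GRCm38) and Cebpb (chr2:167689022-167689141, plus strand) show the contrast, with G and C in capitals.
Prox1: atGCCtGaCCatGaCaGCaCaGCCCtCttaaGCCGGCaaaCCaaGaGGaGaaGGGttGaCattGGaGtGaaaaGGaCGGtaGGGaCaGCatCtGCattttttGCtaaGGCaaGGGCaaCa
Cebpb: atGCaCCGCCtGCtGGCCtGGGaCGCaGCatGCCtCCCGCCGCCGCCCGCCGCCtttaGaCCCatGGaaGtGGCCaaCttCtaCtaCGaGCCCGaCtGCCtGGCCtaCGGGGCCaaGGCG
G and C make up 50.8% of the Prox1 bases and 69.2% of the Cebpb bases. The whole coding part of Prox1 holds 52.6% and the 5185 bases after it 40.4%, so the bases shown are not the part of Prox1 that is low in G and C.

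Each comparison was therefore also fitted with an offset per library meant to remove the dependence on GC content and length. The offset also takes out any difference between the cells themselves that follows GC content or length. Such a difference and one from the handling of the samples cannot be told apart here. With it, 0 of the 8 genes were called in Rspo1-positive relative to Rspo1-negative cells by edgeR and 3 in Rspo1-negative against untreated cells (Sox4, Onecut2 and Gata6). In the first of these comparisons 3 genes had an unadjusted p under 0.05 with the offset, and DESeq2 without it called 3. Block and offset together called 3 of the 8 genes there by edgeR, where they called 4002 of all 17011 genes. The 3 were Sox4 (0.45, adjusted p = 0.0311), Onecut1 (0.75, adjusted p = 0.0206) and Onecut2 (0.50, adjusted p = 0.0294). Over all genes the offset alone gave 1436 calls in place of 4141 in the first comparison, 40.7% of them higher in place of 59.8%. In the second it gave 1329 in place of 3724, 50.6% of them higher in place of 36.5%.

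Onecut2 remained lower in Rspo1-negative than in untreated cells with the offset, by 1.36 in place of 2.34 on the log2 scale (adjusted p = 0.00476 by edgeR). Its difference between the Rspo1 groups was 0.51 in place of 1.54 (adjusted p = 0.0968 by edgeR). For Prox1 the 2 differences were -0.60 in place of -1.19 (adjusted p = 0.188 by edgeR) and 0.27 in place of 0.95 (adjusted p = 0.547 by edgeR), and neither was called with block and offset together. The values of Onecut1 and Sox4, whose GC content is near the median, moved by less. Onecut1 was -1.32 against untreated cells (adjusted p = 0.0683 by edgeR), and -1.43 with the block as well (adjusted p = 0.000967). Between Rspo1-positive and untreated cells Onecut1 was -0.66 with the offset (adjusted p = 0.405 by edgeR). With block and offset together that difference was -0.69 and was called (adjusted p = 0.0310 by edgeR). Sox4 with the offset was -0.65 in Rspo1-negative against untreated cells (adjusted p = 0.0351 by edgeR) and 0.44 between the Rspo1 groups (adjusted p = 0.107).

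Sox9, with 49.3% G and C, also kept its size, at 1.10 in Rspo1-negative against untreated cells, but not its call (adjusted p = 0.0582 by edgeR), which returned with block and offset together (1.12, adjusted p = 0.000559). In Rspo1-positive against untreated cells its value was 1.24 (adjusted p = 0.0429 by edgeR). Gata6, with 55.3% G and C, was called lower in Rspo1-negative than in untreated cells with the offset (-0.57, adjusted p = 0.0319 by edgeR). The differences of Cebpa and Cebpb in that comparison were 0.05 and 0.15 with the offset, in place of 0.46 and 0.60.

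**Figure D3:**
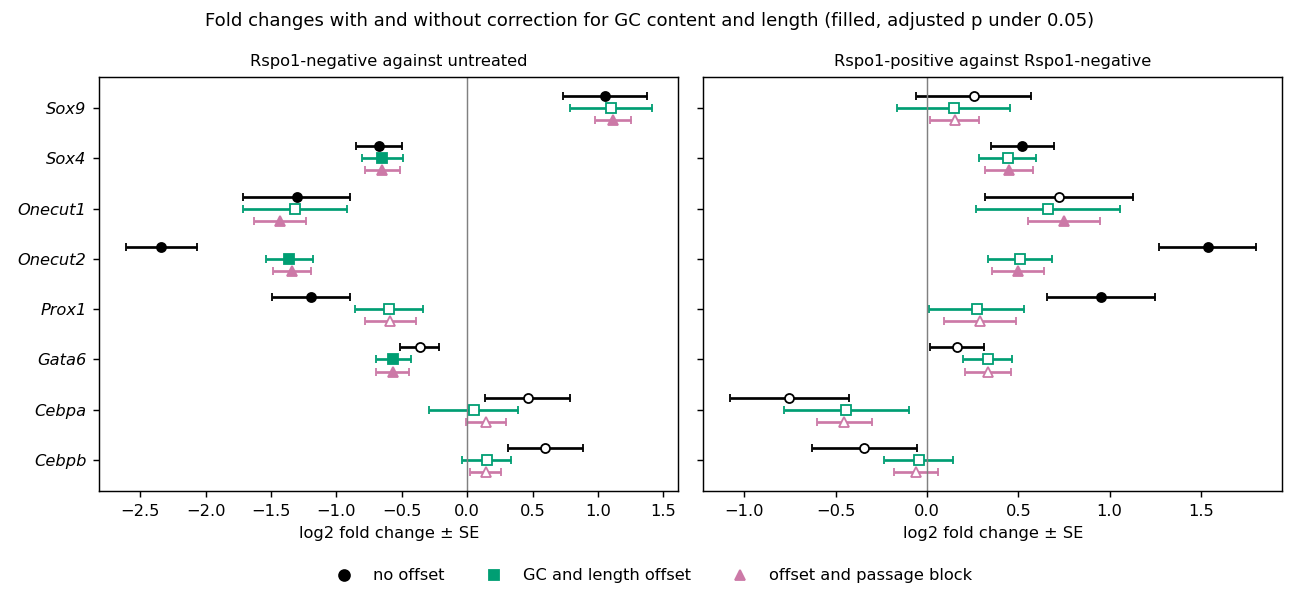
Log2 fold change ± SE of the 8 genes in the 2 comparisons that involve Rspo1-negative cells. The fits are those without an offset, with an offset for GC content and length, and with the offset and a passage block. Filled points have an adjusted p under 0.05 by edgeR. Onecut2 and Prox1 move toward 0 with the offset (Onecut2 from -2.34 to -1.36), and Sox9, Sox4 and Onecut1 stay near their values.

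Levels can be compared between genes only per length, for which the deposited FPKM values (reads scaled by gene length and library size) were used. In untreated cells Onecut2 had the highest FPKM of the 8 genes, 39.8 ± 11.0 (SD, n = 3), followed by Sox4 (27.0), Cebpa (21.3), Cebpb (18.1), Gata6 (13.9), Sox9 (13.4), Onecut1 (6.21) and Prox1 (0.917). In this order the libraries of Sox4 and Cebpa, of Cebpa and Cebpb, and of Gata6 and Sox9 overlapped. In Rspo1-positive cells Sox9 had the highest FPKM, 33.2 ± 8.82 (SD, n = 3), with no overlap with Sox4 (24.4) below it. Sox4, Onecut2 (22.8), Cebpb (21.7) and Cebpa (17.5) followed, each overlapping its neighbour, and then Gata6 (12.1), Onecut1 (4.17) and Prox1 (0.778).

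In Rspo1-negative cells the highest FPKM values were those of Cebpa (30.0), Sox9 (28.5) and Cebpb (28.0), which overlapped one another in that order. Sox4 (17.3), Gata6 (11.0), Onecut2 (8.04), Onecut1 (2.58) and Prox1 (0.411) came after, and only Gata6 and Onecut2 among these neighbours overlapped. Onecut2 thus stood above the C/EBP genes in untreated cells and below them in Rspo1-negative cells. The deposited FPKM values carry no correction for GC content, which the fold changes of Rspo1-negative cells followed. With the offset the fall of Onecut2 and the rises of Cebpa and Cebpb in Rspo1-negative cells were all smaller, so this change of order is uncertain. Onecut1 and Prox1 were the lowest in all 3 groups. Onecut1, Sox4 and Cebpb share exon bases with other genes, as given above, so their places in these orders are uncertain. The length behind the deposited FPKM of Onecut2 was 1.69 times that of Prox1, against 2.05 in the annotation used here, and for the other genes the 2 ratios were the same, so the place of Onecut2 depends on the gene model.

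**Figure D4:**
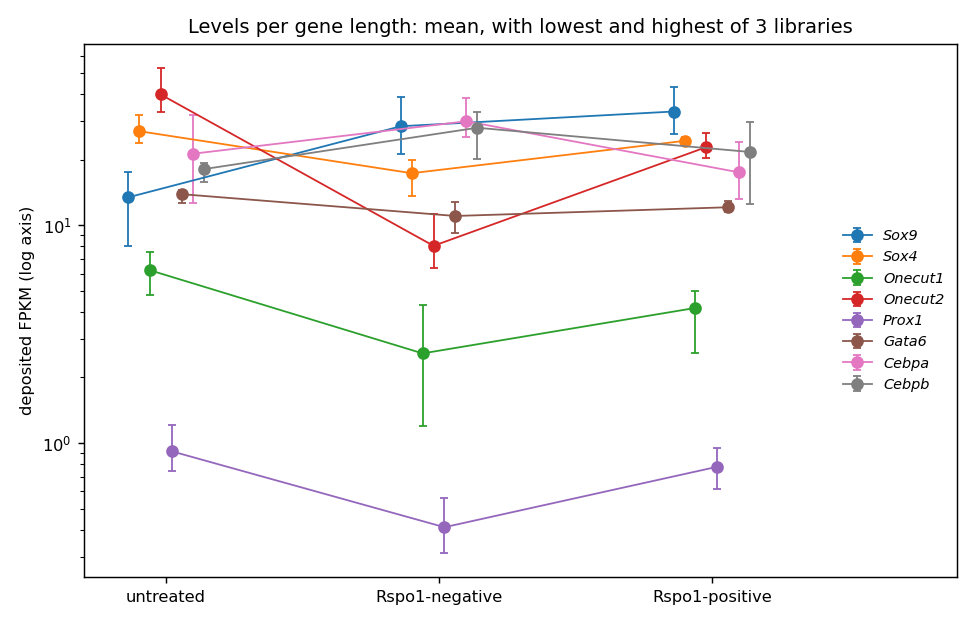
Deposited FPKM of the 8 genes on a log axis, by group; points are means of 3 libraries and bars run from the lowest to the highest library. Onecut2 is highest in untreated cells (mean 39.8) and sixth of the 8 genes in Rspo1-negative cells (mean 8.04), and Prox1 is lowest in every group.

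Passage was tested in a fit with group and passage, since each group had 1 library at each passage. Passage, culture and sorting day cannot be told apart. Of the 8 genes, 4 differed between passages (Sox9, Onecut1, Cebpa and Cebpb), where 12.0% of all genes did. Sox9 rose with passage in all 3 groups, and it was 0.93 higher on the log2 scale at passage 10 than at passage 5 (SE 0.14, adjusted p = 0.00292 by edgeR; joint test of the 3 passages, adjusted p = 0.00489). Of all genes, 9.07% were called between passages 10 and 5 and 2.49% between passages 6 and 5.

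Cebpa was 0.68 higher at passage 6 than at passage 5 (SE 0.15, adjusted p = 0.0374 by edgeR), while passage 10 differed from passage 5 by -0.22 (adjusted p = 0.367). Cebpb was higher than at passage 5 at both later passages, by 0.72 at passage 6 (adjusted p = 0.0477 by edgeR) and 0.64 at passage 10 (adjusted p = 0.0365). Onecut1 passed the joint test (adjusted p = 0.0198 by edgeR), with differences from passage 5 of 0.40 at passage 6 and -0.71 at passage 10 that did not pass singly (adjusted p = 0.410 and 0.0625). Sox4, Onecut2, Prox1 and Gata6 did not pass the joint test (adjusted p 0.194 to 0.667 by edgeR).

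With 1 group left out, fewer genes were called. Without the Rspo1-positive libraries only Sox9 of the 8 genes was called between passages, and without the Rspo1-negative libraries only Cebpa, while all 4 were called without the untreated libraries. Over all genes the 2038 calls were 514, 548 and 1603 in these fits of 6 libraries. With the GC and length offset Cebpb was not called. The gene CT010467.1 took the largest share of counts in both Rspo1 libraries of passage 6, and its part in these differences was not tested.

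**Figure D5:**
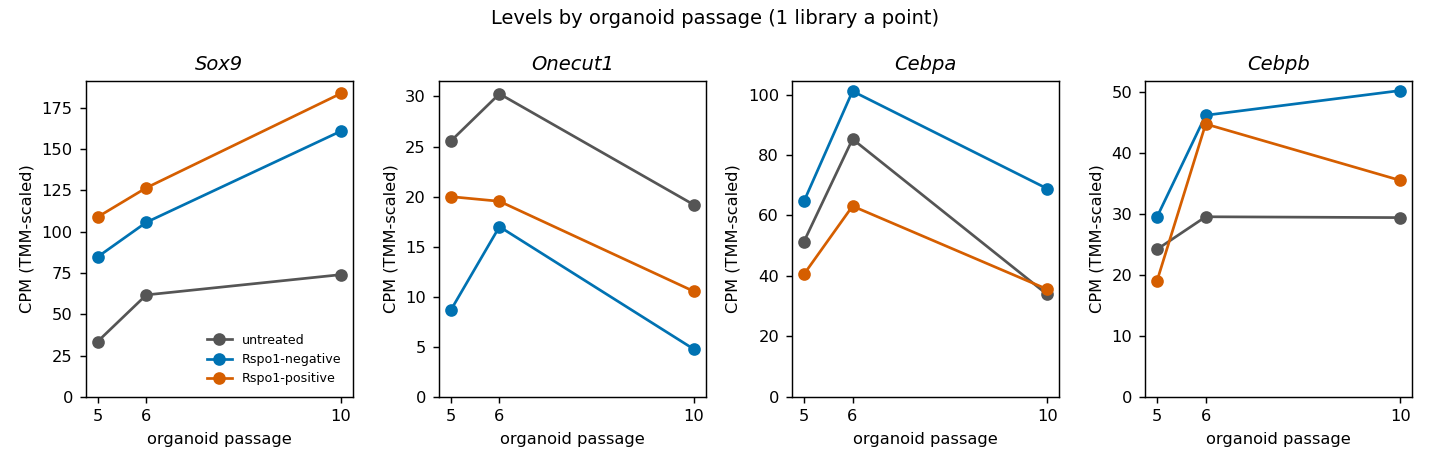
CPM (TMM-scaled) of the 4 genes called between passages against organoid passage; each point is 1 library and each line 1 group. Sox9 is higher at each later passage in all 3 groups, and Cebpa is highest at passage 6 in all 3, at 63.1 to 101 CPM.

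Other members of the same families were read from a list of 12 genes, of which 9 were tested. In Rspo1-positive against untreated cells 0 were called by edgeR, 1 by DESeq2, and 3 had an unadjusted p under 0.05. By edgeR 1 was higher and 1 lower in Rspo1-positive relative to Rspo1-negative cells, and 2 were higher and 2 lower in Rspo1-negative against untreated cells. Cebpd, a further C/EBP gene, rose in Rspo1-negative against untreated cells by 1.36 (SE 0.21, adjusted p = 0.00251 by edgeR), from 24.8 ± 5.79 to 63.4 ± 8.68 CPM (SD, n = 3). It was lower in Rspo1-positive cells than in Rspo1-negative ones, by -0.70 (SE 0.21, adjusted p = 0.0356 by edgeR). Its rise was called with the offset for GC content and length (1.24, adjusted p = 0.0113 by edgeR). Over all genes tested edgeR called 5.21% in Rspo1-positive against untreated cells. It called 24.3% in Rspo1-positive relative to Rspo1-negative cells and 21.9% in Rspo1-negative against untreated cells.

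Onecut3, the third gene of the Onecut family, fell in Rspo1-negative against untreated cells by 1.05 (SE 0.24, adjusted p = 0.0120 by edgeR), from 28.8 ± 7.84 to 13.9 ± 3.02 CPM (SD, n = 3). All 3 Onecut genes were thus lower in that comparison, and Onecut3 was also called with the offset (-1.14, adjusted p = 0.0195 by edgeR). Cebpg, a C/EBP family partner that lacks an activation domain of its own, fell by 0.74 (adjusted p = 0.0110 by edgeR), which was -0.22 with the offset (adjusted p = 0.348). Sox12, a close relative of Sox4, rose by 0.82 (adjusted p = 0.0460 by edgeR), which was 0.67 with the offset (adjusted p = 0.113). The fall of Onecut3 was lost without the Rspo1-negative library of passage 10 (-0.85, adjusted p = 0.0513 by edgeR), as was that of Cebpg (-0.57, adjusted p = 0.0539). The rise of Sox12 was lost without any 1 of 4 libraries, the untreated ones of passages 5 and 6 and the Rspo1-negative ones of passages 5 and 10 (0.67 to 0.87, adjusted p 0.0856 to 0.143 by edgeR). Cebpg was higher in the Rspo1-positive group than in the Rspo1-negative one by 0.60 (adjusted p = 0.0232 by edgeR). With the offset that difference was 0.0043 (adjusted p = 0.989) and the one of Cebpd was -0.64 (adjusted p = 0.0845). Both were also lost without any 1 of 5 of the 6 libraries (adjusted p 0.0564 to 0.122), all but the Rspo1-negative library of passage 5 for Cebpd and of passage 6 for Cebpg.

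Of 23 further transcription factors of hepatobiliary cells 18 were tested. EdgeR called 1, 5 and 2 of them in Rspo1-positive against untreated, Rspo1-negative against untreated and Rspo1-positive relative to Rspo1-negative cells. Of all 17011 genes it called 5.21%, 21.9% and 24.3% in that order. DESeq2 called 2, 6 and 4 of the 18. With the offset edgeR called 2, 6 and 1 of them, and 1027, 1329 and 1436 of all genes. In Rspo1-positive against untreated cells the main fit called only Nr1h4, the bile acid receptor gene, at -1.05 (SE 0.16, adjusted p = 0.00362 by edgeR). In Rspo1-negative against untreated cells 5 were lower and 0 higher, with adjusted p 0.00162 to 0.0355 by edgeR. These were Nr1h4 (-0.86), Hnf4g (-1.69), the liver-enriched factor Foxa1 (-0.83), the epithelial zinc-finger gene Klf5 (-0.62) and Tead1 (-1.25). Tead1 is a partner of the Hippo effector YAP. All 5 were called with the offset, where Tead1 was -0.64. Foxa1 was lost without the Rspo1-negative library of passage 5 or 10 or the untreated library of passage 6 (-0.72 to -0.61, adjusted p 0.0994 to 0.140 by edgeR), and the other 4 held without any 1 library. In Rspo1-positive relative to Rspo1-negative cells 2 were higher, Hnf4g (0.92) and Tead1 (1.40), with adjusted p 0.0185 and 0.00196 by edgeR. Hnf4g was 0.45 there with the offset (adjusted p = 0.191), and its call was lost without the Rspo1-positive library of passage 5 or 10 or the Rspo1-negative library of passage 6 or 10 (0.76 to 0.89, adjusted p 0.0506 to 0.0826 by edgeR). Hnf4g has a mean level under the minimum set for naming and is named because these counts are small.

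Among 14 tested duct genes 1 was higher (Cftr) and 1 lower (Krt19) in Rspo1-positive against untreated cells, 2 were higher (Cldn4 and Aqp1) and 1 lower (Muc1) in Rspo1-negative against untreated cells, and 1 was higher (Cftr) and 4 lower (Krt19, Cldn4, Cldn7 and Slc4a2) in Rspo1-positive relative to Rspo1-negative cells. Of 7 tested hepatocyte genes edgeR called 1 in Rspo1-negative against untreated cells (Trf, higher) and 0 in the other comparisons, where DESeq2 called 1 and 0 and 2 and 0 had an unadjusted p under 0.05. With the GC and length offset edgeR called 2, 2 and 1 of the duct genes in these comparisons in that order, and 0 of the hepatocyte genes in each. Of all 17011 genes edgeR called 5.21%, 21.9% and 24.3% in the same order without the offset, and 1027, 1329 and 1436 genes with it.

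The genes most like each factor over the 9 libraries were found by the mean absolute difference of log2 CPM after each gene was centred on its own mean, among 11660 genes. For Sox9 these were Slc1a1 (0.17 log2 CPM), Csrp2 and Rhoj, and for Sox4 they were Dusp16 (0.07), Bicc1 and Dyrk1a. Onecut2 was nearest to Lcor (0.18), Kdm7a and Ikzf2, whose transcripts hold 42.0%, 39.6% and 40.1% G and C, all low as that of Onecut2 is. For Onecut1 they were Ccdc96 (0.18), Galnt7 and Gm20649, the last being the noncoding gene that shares its exons. Prox1 was nearest to Ssh2 (0.10), Gata6 to Ahdc1 (0.07), Cebpa to Rbp4 (0.16) and Cebpb to B430218F22Rik (0.11).

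The authors' deposited tables give their own DESeq2 values for the 8 genes, with a model that is not given in the sources used here. In the authors' deposited table for Rspo1-positive against untreated cells, 3 of the 8 genes had an adjusted p under 0.05: Sox9 (1.36), Onecut2 (-0.77, adjusted p = 4.47e-07) and Onecut1 (-0.61, adjusted p = 0.00906). The authors' deposited table for Rspo1-positive against Rspo1-negative cells has 6, all but Sox9 and Gata6, with Cebpa at -0.79 (adjusted p = 2.55e-08). The authors' deposited table for Rspo1-negative against untreated cells has 7, all but Gata6. The share of all genes called in the authors' tables was not counted. These counts therefore have no background and do not set the 8 genes apart from other genes. The directions in these tables are those of the edgeR fit for every one of the 8 genes in each comparison.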

How the data were processed

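RNA from sorted cells was read in 9 libraries as single-end 75 bp reads from 100 ng of total RNA, per the labels. Per the submitters' processing notes, Trimmomatic 0.35, FastQC 0.11.2, STAR 2.5.1b, featureCounts and DESeq2 were used with the GRCm38 build. The strand setting and the annotation are not given in the sources used here. Raw counts and FPKM per gene are as deposited in each library's file. The FPKM values follow a size factor per library and entered no test. The authors' deposited comparison tables hold log2 fold changes, p-values, a mean signal and a test score, and only their fold changes and adjusted p-values were read.

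Counts were analysed with edgeR 4.0.16 in R 4.3.3 (filterByExpr, minimum count 10 and minimum total count 15, TMM, 1 quasi-likelihood fit of all 9 libraries on group, Benjamini-Hochberg adjustment over 17011 genes). The standard error is the fold change divided by the square root of F. Alternatives were other scalings, no filter, DESeq2 1.42.0, the 6 libraries compared, each library left out, passage as a block, and an offset per library from natural splines (5 degrees of freedom) on GC content and log length of the longest GENCODE M21 transcript. Replicate numbers are passages per the labels. After removal of group means, libraries of the same passage correlated by 0.12 to 0.57 in all 9 pairs and those of different passages by -0.48 to 0.08, so the numbers pair the libraries. Genes outside the 8 are named where the adjusted p was under 0.05 and the mean log2 CPM above 2. The fits were tested on simulated data. The 8 genes and the lists were chosen with earlier results of these data known. One gene of the lists of markers and transcription factors is not reported here. The motifs and sequences shown were chosen after the values had been seen and after further motifs had been searched in the same windows.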

Additional observations from a re-analysis of the deposited data

Results flagged for a closer look

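For 3 of the 8 genes the reporter-positive and the reporter-negative cells of Rspo1-treated organoids differed, where 24.3% of all genes did. Against the same untreated libraries the value of Onecut2 was thus 1.54 higher on the log2 scale in reporter-positive cells, that of Prox1 0.95 higher and that of Sox4 0.52 higher. The test of each difference is the test between the Rspo1 groups by edgeR. It does not show a response to Rspo1 within a gate, since no reporter-positive untreated cells were analysed here. Each of these genes was higher in the Rspo1-positive than in the Rspo1-negative library at all 3 passages. With the GC and length offset the 3 differences were 0.51, 0.27 and 0.44, and none of them was called by edgeR. With passage as a block and the offset together, Onecut2 (0.50, adjusted p = 0.0294) and Sox4 (0.45, adjusted p = 0.0311) were called by edgeR and Prox1 was not. With 3 libraries in each group, single libraries were not tested for lying apart from the rest.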

How the results depend on the processing

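In Rspo1-positive against untreated cells the 1 call among the 8 genes was 2 with no filter, with the passage block, with the GC and length offset and with DESeq2, 3 with block and offset together, 0 with only the 6 libraries compared, and 0 to 1 with 1 library left out. The 886 calls over all genes were 1446 with no filter, 2247 with the block, 2751 with block and offset, 1506 with DESeq2, and 390 to 899 with 1 library left out. In Rspo1-positive relative to Rspo1-negative cells the 3 calls among the 8 genes were 5 with the block and 4 with no filter. They were 0 with the offset and 1 to 4 with 1 library left out. The 4141 over all genes were 6624 with the block, 4273 with no filter, 1436 with the offset and 2061 to 4068 with 1 library left out. In Rspo1-negative against untreated cells the 5 calls among the 8 genes were 7 with the block, 6 with no filter, 3 with the offset, 2 with only the 6 libraries compared and 1 to 5 with 1 library left out. The 3724 calls over all genes were 6039 with the block, 1329 with the offset, 2299 with 6 libraries and 1800 to 3772 with 1 library left out. Between passages the 4 calls among the 8 genes were 1 without the Rspo1-positive group and 1 without the Rspo1-negative group, and the 2038 over all genes were 514 and 548, and 3782 with no filter. The cause of these changes was not tested. Fewer libraries enter the fits that leave some out, and an arm left with 2 libraries or passages has less to estimate the spread from.

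Over 14 alternatives for each of the 8 genes in each comparison, 275 of the fold changes kept their direction and their side of the threshold, 41 lost a call, 17 gained one and 3 changed sign. Those 3 were small and not called, all in Rspo1-positive against untreated cells: with 1 library left out Prox1 ranged from -0.40 to 0.018, Cebpa from -0.58 to 0.12 and Cebpb from -0.022 to 0.54, the sign changing for Prox1 and Cebpa without the untreated library of passage 6 and for Cebpb without the Rspo1-positive library of passage 6. The fall of Onecut2 in Rspo1-negative against untreated cells was called in all 14. Pairing by passage changed no other call of the 8 genes than those given for Onecut1, Onecut2, Cebpa and Cebpb. For the 9 other transcription factors named, in the comparisons where they were called, 162 of 196 alternatives, chosen after the data had been seen, kept the call, 34 lost it and 0 changed direction. Depth limits Prox1 most, with 59 to 307 counts per library.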
